A study of Mus musculus with 15 samples.

Results

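Cells make cholesterol from acetyl-CoA, take it up, store it as esters and export it, and the genes for these steps answer to a pair of opposed control systems. The data describe 36 such genes in a mouse macrophage line. They comprised 7 genes of the mevalonate and isoprenoid steps, 11 of the squalene and sterol steps, 6 of the SREBP system together with the sterol carrier Stard4, 7 LXR receptors and known LXR targets, 2 of sterol esterification and oxysterol synthesis and 3 of fatty acid synthesis. The members were listed by symbol from their known roles and looked up through their Ensembl identifiers. All 36 were found among the 78317 gene identifiers of the count table.

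SREBP2, the product of Srebf2, is a membrane-bound transcription factor that the escort protein SCAP carries to the Golgi when sterols are low, where it is cut and released to switch on the genes of cholesterol synthesis. INSIG proteins hold SCAP in the endoplasmic reticulum when sterols are plentiful. The liver X receptors LXRα (Nr1h3) and LXRβ (Nr1h2) sense oxysterols instead and switch on genes that export sterol, such as the transporters Abca1 and Abcg1, together with Mylip, the ubiquitin ligase that removes lipoprotein receptors from the cell surface. In macrophages the balance between these systems sets the lipid load of the cell and is known to respond to inflammatory signals.

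The cells were MH-S, a line of SV40-transformed mouse alveolar macrophages grown in RPMI with FCS, and their RNA was sequenced 24 h after treatment. M0 cells received medium alone, M1 cells LPS at 1 µg/mL with IFN-γ at 20 ng/mL, M2 cells IL-4 at 20 ng/mL, and the remaining groups calcium phosphate (CaP) or silica (SiO2) microrods at 0.1 mg/mL. The rods were stabilized with alginate and coated with protamine and carboxymethyl chitosan. Each group held 3 libraries from separate wells of the same cell passage, and each rod library received its own particle batch, so p-values measure the spread between wells and batches within a single line. Total counts ran from 8459643 to 68750050 per library. Levels are given as CPM, counts relative to the library size after TMM scaling, and a gene was called changed at an edgeR adjusted p below 0.05 with an absolute log2 fold change above 0.5.

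Macrophage markers were present throughout, with all 7 of 7 (Cd68, Adgre1, Csf1r, Lyz2, Itgax, Mertk and Fcgr1) detected in every group and a summed level of 1353 to 3476 CPM. The lowest sums were those of M2, at 1353 to 2055 CPM. In M1 and with SiO2 only 6 of these 7 genes exceeded 3 counts in any library of the group. The 8 markers that define alveolar macrophages summed to 1.06 to 5.92 CPM outside M2 and 25.8 to 31.8 CPM in M2, most of it Mrc1, and Ear2 was at 0 in all 15 libraries, so the transcripts that set alveolar macrophages apart were largely absent. Epithelial, fibroblast and T cell markers summed to at most 0.116, 0.171 and 0.172 CPM per library and B cell markers to at most 0.429 CPM. Endothelial markers summed to 0.116 to 0.844 CPM in M0, 1.26 to 1.54 CPM in M1 and up to 1.77 CPM in M2, most of it Pecam1, which macrophages also express, and their part in the results was not tested. The stimuli left their usual marks, with Il1b at 358, 424 and 449 CPM in M1 against 0.815 to 1.27 CPM in M0, and Arg1 at 1379 to 1722 CPM in M2 against 8.44 to 14.7 CPM in M0. In bulk RNA fewer cells of a type and less RNA per cell cannot be told apart.

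Promoters of members are shown because the members are grouped here by their known roles in these control systems. The sequences are from RefSeq on GRCm38.p6, whereas the counts were made on GRCm39, and the motif search covered 250 bases before to 50 after each annotated start. A promoter was listed for 15 of the 18 synthesis genes and 15 of the 18 other members. The first 4 sequences below belong to synthesis genes called higher in M1, and the last 2 to the LXR targets called lower in M2, each given as the 250 bases before the start. Capitals mark CCAAT, the NF-Y motif, on either strand (ATTGG on the other) and CACCCCAC, the core of a sterol regulatory element. Hmgcs1 lies at chr13:119690101-119690350 on the plus strand, Mvk at chr5:114444019-114444268 on the plus strand, Msmo1 at chr8:64733579-64733828 on the minus strand, Hsd17b7 at chr1:169969206-169969455 on the minus strand, Mylip at chr13:45389492-45389741 on the plus strand and Abca1 at chr4:53159896-53160145 on the minus strand.
Hmgcs1: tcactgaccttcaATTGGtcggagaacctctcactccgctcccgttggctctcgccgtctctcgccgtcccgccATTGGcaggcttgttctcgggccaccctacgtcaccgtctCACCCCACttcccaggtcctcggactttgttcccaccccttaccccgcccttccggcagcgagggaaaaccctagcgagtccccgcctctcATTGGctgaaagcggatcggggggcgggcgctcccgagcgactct
Mvk: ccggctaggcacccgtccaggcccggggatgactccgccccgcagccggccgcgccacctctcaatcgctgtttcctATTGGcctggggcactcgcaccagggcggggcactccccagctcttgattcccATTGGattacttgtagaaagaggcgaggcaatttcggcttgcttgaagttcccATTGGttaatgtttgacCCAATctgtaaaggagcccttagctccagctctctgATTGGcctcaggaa
Msmo1: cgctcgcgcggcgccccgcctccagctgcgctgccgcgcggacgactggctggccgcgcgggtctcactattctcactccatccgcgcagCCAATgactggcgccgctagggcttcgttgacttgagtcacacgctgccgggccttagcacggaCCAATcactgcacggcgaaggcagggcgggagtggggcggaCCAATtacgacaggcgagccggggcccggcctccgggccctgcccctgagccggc
Hsd17b7: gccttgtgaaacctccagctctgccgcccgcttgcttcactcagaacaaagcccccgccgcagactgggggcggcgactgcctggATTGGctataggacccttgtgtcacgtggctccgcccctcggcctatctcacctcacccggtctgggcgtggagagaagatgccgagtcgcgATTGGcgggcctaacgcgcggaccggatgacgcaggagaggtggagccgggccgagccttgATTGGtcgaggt
Mylip: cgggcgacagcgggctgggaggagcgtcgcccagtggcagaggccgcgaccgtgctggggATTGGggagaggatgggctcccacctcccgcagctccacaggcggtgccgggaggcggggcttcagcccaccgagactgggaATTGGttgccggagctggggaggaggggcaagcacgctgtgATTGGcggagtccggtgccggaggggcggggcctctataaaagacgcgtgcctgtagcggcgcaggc
Abca1: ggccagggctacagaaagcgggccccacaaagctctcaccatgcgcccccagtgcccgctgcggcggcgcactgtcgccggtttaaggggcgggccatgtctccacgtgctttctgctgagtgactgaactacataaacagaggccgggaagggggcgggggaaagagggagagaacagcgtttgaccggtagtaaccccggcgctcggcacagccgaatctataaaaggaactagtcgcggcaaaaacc

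CCAAT was found in 14 of the 15 synthesis genes with a promoter, or 77.78% of their 18 promoter entries. It was found in 39.13% of the 23 entries of the other members and in 37.41% of all 32851 promoters. Mvk held 5 copies, Hmgcs1, Msmo1, Hsd17b7 and Mylip 3 each and Abca1 none in the sequences shown. The synthesis genes shown are those with the most copies before the start, and are not typical of the set. Pmvk, Mvd, Idi1, Lss, Cyp51, Tm7sf2, Nsdhl and Sc5d, also called higher in M1, each held fewer copies there. Acat2, called higher as well, held none. CACCCCAC, searched on both strands like the rest, was found in Hmgcs1 at 136 bases and in Acat2 at 181 bases before the start, against 2.87% of all promoters. A longer form of the sterol regulatory element, which contains the shorter one, was in no member and in 0.09% of all promoters. The interferon-stimulated response element was in Ebp alone among the members, against 3.44% of all promoters, and the direct-repeat LXR element was in none, against 0.02%. These are counts of letters in a window and were not tested.

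Per kilobase of transcript, the levels of the members in M0 spanned several orders of magnitude. Fdps, the synthase of farnesyl pyrophosphate, was highest at 326 CPM per kb, followed by Insig1 at 149, the kinase Pmvk at 73.7, Abcg1 at 69.3 and Acat2, the thiolase at the head of the pathway, at 59.1. Abca1 was at 0.255 CPM per kb, so the levels of these cholesterol exporters in this line were far apart. Nr1h3 had 0 to 22 counts per library, or 0.049 CPM per kb in M0, 0.283 in M1, 0.166 in M2, 0.188 with CaP and 0.088 with SiO2. Nr1h2 stood at 16.7 CPM per kb in M0, so nearly all LXR transcript measured here was that of LXRβ. Ch25h, which makes 25-hydroxycholesterol and is known as an interferon-induced gene, had 0 counts among the 352964106 of the 15 libraries, M1 included, which allows up to 0.0429 CPM in the deepest and 0.394 CPM in the shallowest. Nr1h3 and Ch25h fell to the filter on low counts, and the other 34 members were tested in every comparison. The counts of Acat2 and Scd2 depend on how reads were split with their close relatives Acat3 and Scd1.

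**Figure D1:**
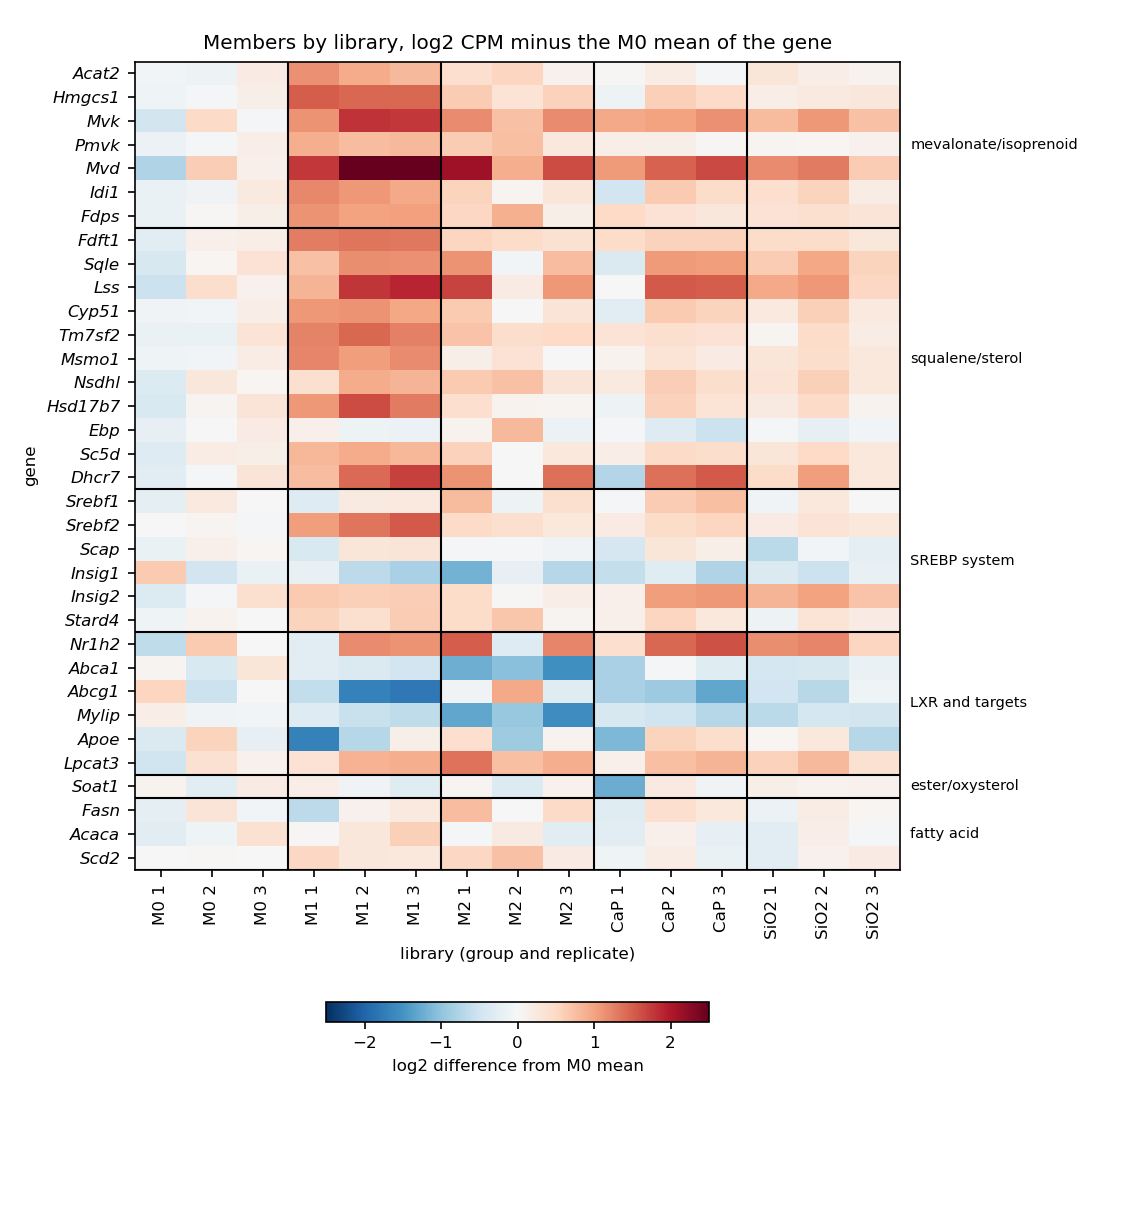
Each cell shows the log2 CPM of a member in a library minus the mean of the gene in M0, for the 34 tested members in rows grouped by role and the 15 libraries in columns grouped by treatment, and values beyond the ends of the colour scale have the end colour. The synthesis genes are red across the 3 M1 libraries, with Ebp the exception, whereas Abcg1 is blue in M1 and Abca1 and Mylip are blue in M2.

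In M1 cells the genes of cholesterol synthesis rose together. Of the 34 members tested, 17 were called against M0, 16 higher and 1 lower, where 14.1% of all 16654 genes were called. Among the 18 synthesis genes 15 were higher and none lower, against 9.7% of all genes called higher. All 7 mevalonate genes and 8 of the 11 sterol genes were in that count. At an unadjusted p below 0.05 there were 23 members, against 27.7% of all genes. The median log2 fold change was 1.12 over the 18 synthesis genes and 0.78 over the 34 members, beside -0.01 over all genes tested.

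The early enzymes of the pathway moved together. Hmgcs1, which makes HMG-CoA, had 14.6, 15.1 and 17.1 CPM in the M0 libraries and 44.4, 42.0 and 42.0 CPM in M1, a log2 fold change of 1.46 ± 0.19 (SE, n = 3 per group, edgeR adjusted p = 0.00013). Mvk, the mevalonate kinase, went from 4.07, 7.73 and 5.32 CPM to 12.2, 19.6 and 19.1 CPM, with a log2 fold change of 1.59 ± 0.26. Mvd, the decarboxylase that yields isopentenyl pyrophosphate, went from 8.38, 21.5 and 15.3 CPM to 47.8, 97.0 and 94.9 CPM, and its log2 fold change of 2.43 ± 0.40 had the highest value of all members. The M1 libraries of these genes lay above those of M0 without overlap.

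Pmvk, the kinase between Mvk and Mvd, was less responsive, with 79.1, 86.1 and 98.8 CPM in M0 and 165, 149 and 153 CPM in M1, a log2 fold change of 0.82 ± 0.15. Acat2 had 126, 121 and 152 CPM in M0 and 291, 252 and 230 CPM in M1, a log2 fold change of 0.96 ± 0.16. Fdps, the most abundant gene of the pathway, went from 399, 456 and 499 CPM to 974, 905 and 915 CPM, a log2 fold change of 1.05 ± 0.17. Idi1, the isomerase of isopentenyl pyrophosphate, had a log2 fold change of 1.08 ± 0.25. The adjusted p-values of these 7 genes in edgeR lay between 0.00013 (Hmgcs1) and 0.0105 (Idi1).

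The sterol branch followed. Fdft1, the squalene synthase that commits farnesyl pyrophosphate to sterols, had 43.5, 57.3 and 58.9 CPM in M0 and 129, 133 and 132 CPM in M1, and its log2 fold change of 1.31 ± 0.14 had the lowest adjusted p of the members (edgeR, 3.04e-05). Msmo1, a methylsterol demethylase, had 89.8, 92.9 and 110 CPM in M0 and 227, 200 and 220 CPM in M1, a log2 fold change of 1.15 ± 0.14. The sterol reductase Tm7sf2 went from 3.92, 3.83 and 5.44 CPM to 10.4, 11.9 and 10.6 CPM, a log2 fold change of 1.35 ± 0.19. These M1 values were tightly grouped and all above the highest M0 library.

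Hsd17b7, which acts in sterol demethylation, had 6.41, 8.64 and 10.3 CPM in M0 and 17.6, 25.9 and 20.5 CPM in M1, with a log2 fold change of 1.37 ± 0.24. Sc5d, a desaturase near the end of the pathway, had 23.7, 33.8 and 32.5 CPM in M0 and 52.5, 56.5 and 52.9 CPM in M1, with a log2 fold change of 0.85 ± 0.18. Cyp51, the lanosterol demethylase, had a log2 fold change of 1.06 (edgeR adjusted p = 0.0076), the lanosterol synthase Lss 1.55 (0.036) and Nsdhl 0.73 (0.033). The calls of Lss, Nsdhl and Abcg1 were lost when M0 replicate 1, M0 replicate 3, M1 replicate 2 or M1 replicate 3 was left out, which gave 14 called members in place of 17. With the 6 M0 and M1 libraries alone Nsdhl (adjusted p = 0.099) and Abcg1 (0.060) were not called either, while Sqle and Dhcr7 were.

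The sterol genes without a call were Sqle, Dhcr7 and Ebp. The squalene epoxidase Sqle had a log2 fold change of 1.00 (95% interval 0.22 to 1.77, edgeR adjusted p = 0.083), and Dhcr7, which catalyses the last reduction of the pathway, 1.37 (0.28 to 2.47, adjusted p = 0.092). The libraries of Sqle and Dhcr7 did not overlap between M1 and M0. Ebp, a sterol isomerase, had 82.5, 69.4 and 68.5 CPM in M1 and 66.0, 75.4 and 87.9 CPM in M0, with a log2 fold change of -0.05 (-0.54 to 0.43). In all, 17 of 18 synthesis genes had every M1 library above every M0 library, where 20.2% of all genes did. With 3 libraries against 3, an exact permutation test of a single gene cannot go below p = 0.1.

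**Figure D2:**
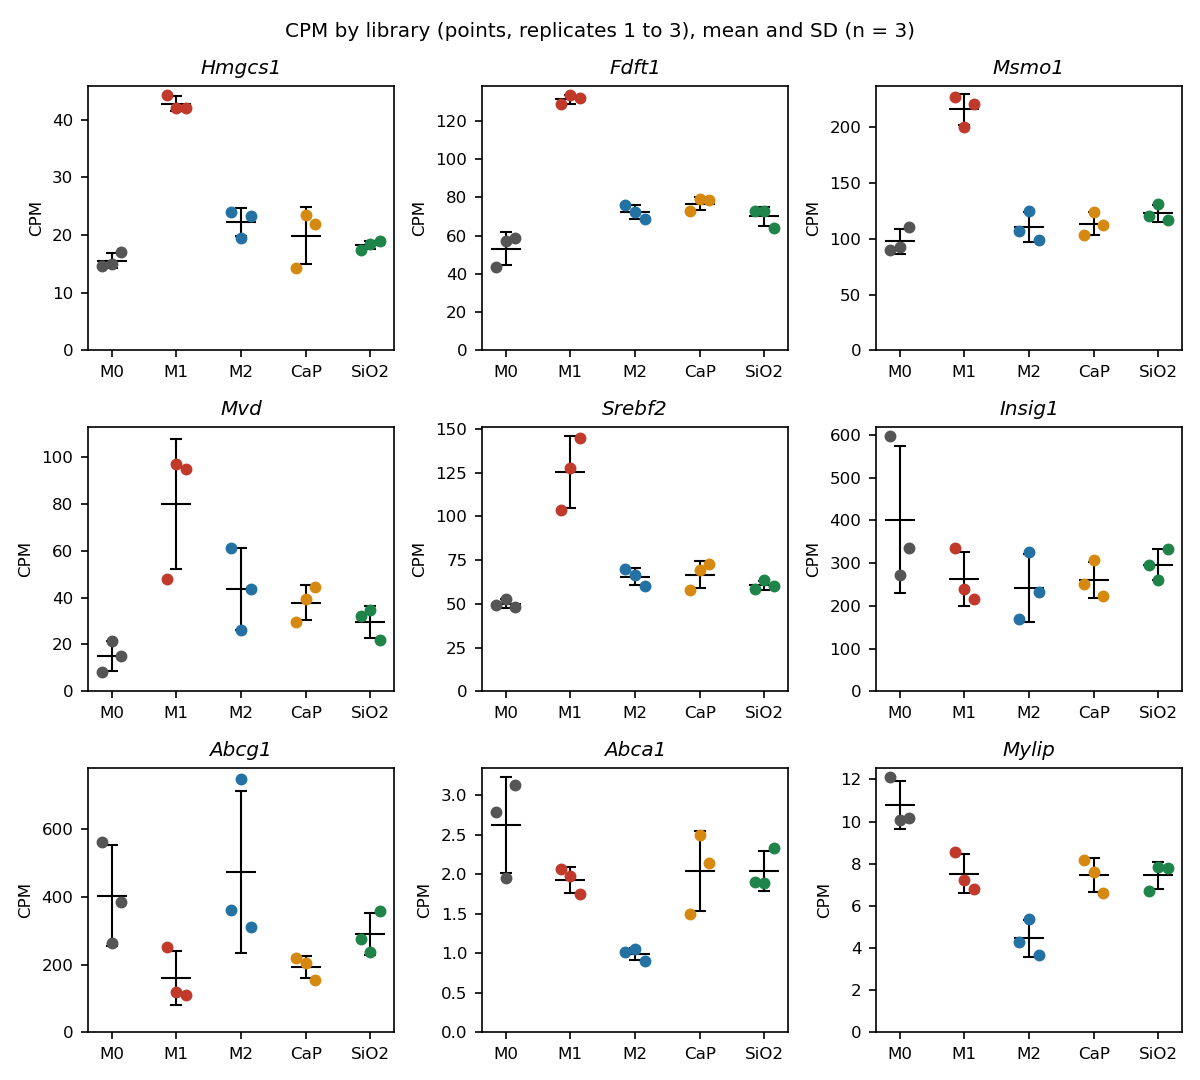
CPM of 9 members in each library (points, replicates 1 to 3 from left to right) with the mean and SD (bars, n = 3) for the 5 groups on the horizontal axis. Hmgcs1, Fdft1, Msmo1 and Srebf2 in M1 stand clear of every other group, Abca1 and Mylip are lowest in M2, and Abcg1 and Insig1 vary widely within M0.

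Among the regulators Srebf2 was called and the others were not. Srebf2 rose from 49.6, 52.7 and 48.1 CPM in M0 to 103, 128 and 145 CPM in M1, a log2 fold change of 1.32 ± 0.15 (edgeR adjusted p = 5.4e-05). Srebf1, which codes for the form tied to fatty acid genes and is itself a known LXR target, had a log2 fold change of 0.06 (95% interval -0.51 to 0.63), and Scap one of 0.11 (-0.40 to 0.63). Insig1, itself a known SREBP target, had 597, 272 and 336 CPM in M0 and 335, 241 and 216 CPM in M1, overlapping, with a log2 fold change of -0.61 (-1.24 to 0.03, adjusted p = 0.20). Insig2 and Stard4 had log2 fold changes of 0.60 (adjusted p = 0.13) and 0.54 (adjusted p = 0.073), and their libraries did not overlap.

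On the efflux side Abcg1, which exports cholesterol to HDL, was the only member called lower in M1, where 4.35% of all genes were. It had 563, 264 and 385 CPM in M0 and 253, 119 and 112 CPM in M1, a log2 fold change of -1.33 ± 0.39 (edgeR adjusted p = 0.036). Abca1, the exporter to lipid-poor apolipoprotein, had 2.79, 1.95 and 3.12 CPM in M0 and 2.06, 1.98 and 1.75 CPM in M1, with overlap and a log2 fold change of -0.42 (adjusted p = 0.33). Mylip had a log2 fold change of -0.53 (adjusted p = 0.085), and with Abcg1 it was 1 of 2 members whose M1 libraries all lay below M0, where 12% of all genes did. Nr1h2 (0.72), Apoe (-0.68) and the phospholipid remodelling enzyme Lpcat3 (0.70) spread in both directions without a call. Among the 6 tested genes of the LXR group the median log2 fold change was -0.47.

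The tested members of fatty acid synthesis and sterol esterification stayed without a call in M1. The fatty acid synthase Fasn had a log2 fold change of -0.07, the acetyl-CoA carboxylase Acaca 0.32, the desaturase Scd2 0.36 and the cholesterol esterification enzyme Soat1 -0.07, with adjusted p-values of 0.19 or more in edgeR. Of 31 further genes of lipid metabolism, 6 were called higher in M1 and none lower. They were Acss2, the acetyl-CoA synthetase (log2 fold change 2.09), the scavenger receptor Msr1 (1.52), the malic enzyme Me1 (1.22), the sterol transfer gene Gramd1a (1.21), the desaturase Scd1 (1.12) and the scavenger receptor Cd36 (0.88). The mitochondrial share of counts was 0.888% to 1.04% in M1 and 1.48% to 2.18% in M0, and its part in these results was not tested.

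**Figure D3:**
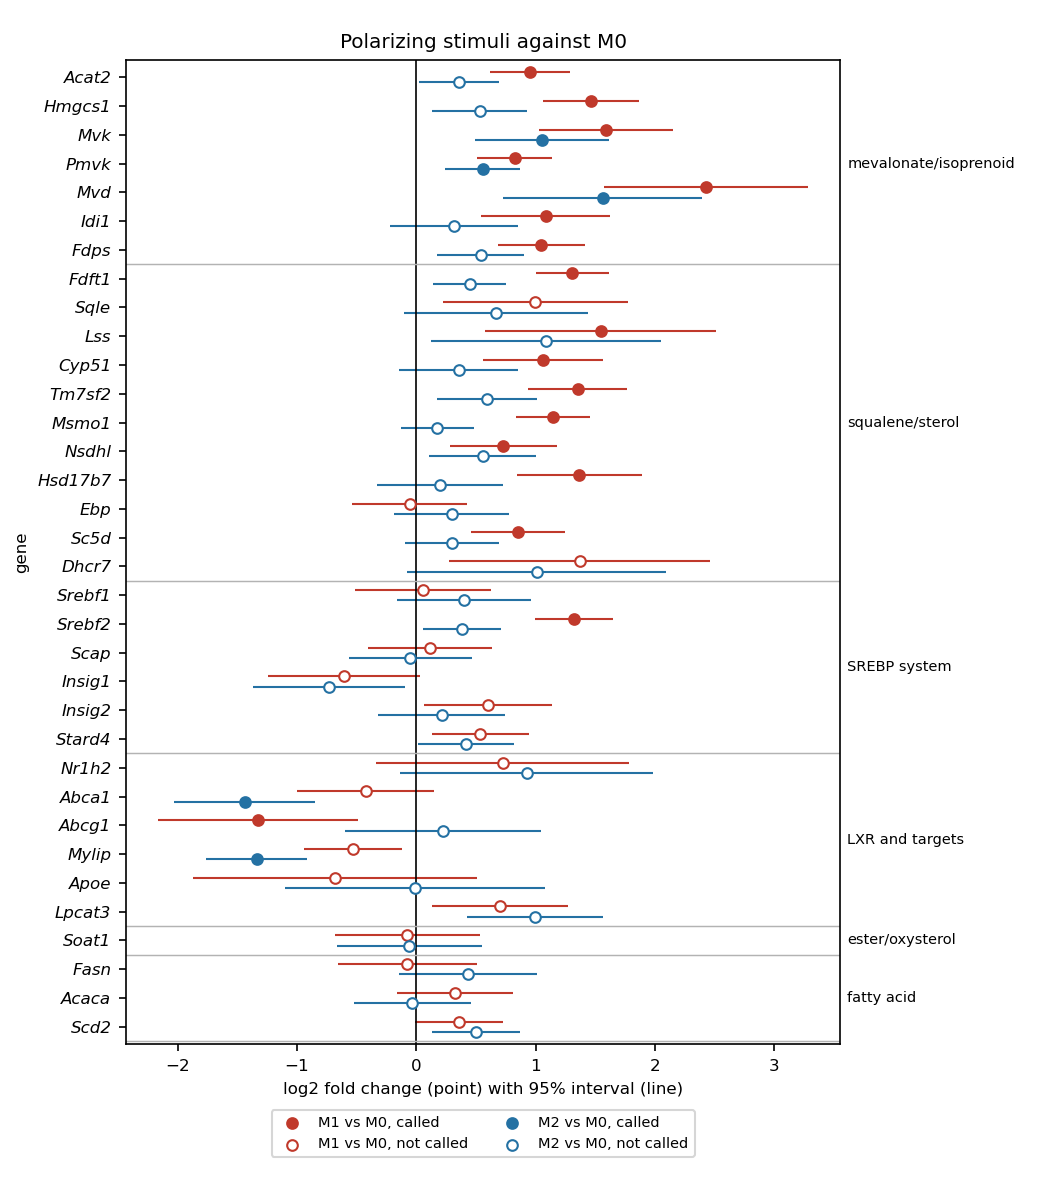
Log2 fold changes of the 34 tested members against M0 (points) with their 95% intervals (lines) for M1 in red and M2 in blue, with filled points for calls. For M1 the filled points run through nearly all mevalonate and sterol genes and Srebf2, whereas for M2 they mark Mvk, Pmvk, Mvd, Abca1 and Mylip.

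In M2 cells the lowest adjusted p-values were those of LXR targets. With IL-4, 5 of 34 members were called against M0, 3 higher and 2 lower, where 4.13% of all genes were called, 2% higher and 2.13% lower. Mylip had 4.29, 5.39 and 3.69 CPM in M2 against 12.1, 10.1 and 10.2 CPM in M0, a log2 fold change of -1.34 ± 0.20 (edgeR adjusted p = 0.0013). Abca1 had 1.02, 1.05 and 0.900 CPM against 2.79, 1.95 and 3.12 CPM, a log2 fold change of -1.44 ± 0.27 (adjusted p = 0.0086). Neither overlapped with M0. Abcg1, by contrast, had 362, 747 and 311 CPM in M2 and a log2 fold change of 0.23 (95% interval -0.59 to 1.05). Lpcat3 stood at 60.4 ± 13.4 CPM against 30.4 ± 8.91 CPM (SD, n = 3 each), without overlap, and its log2 fold change of 1.00 missed the threshold (adjusted p = 0.053 in edgeR).

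The 3 members called higher in M2 were neighbouring steps of the mevalonate pathway. Mvk had 12.7, 9.07 and 12.7 CPM in M2, with a log2 fold change of 1.05 ± 0.26 (edgeR adjusted p = 0.038). Mvd had 61.1, 26.2 and 43.6 CPM, with a log2 fold change of 1.56 ± 0.39 (0.038). Pmvk had 136, 147 and 106 CPM, with a log2 fold change of 0.56 ± 0.15 (0.049). All 18 synthesis genes had a positive log2 fold change, with a median of 0.54 beside 0.07 over all genes, and 7 of them had no overlap with M0, where 7.04% of all genes lay above without overlap. Srebf2 stood at 69.8, 66.4 and 60.3 CPM with a log2 fold change of 0.38 (adjusted p = 0.20). Of the 31 further genes only Acss2 was called (log2 fold change 1.29).

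These M2 calls depended on the libraries in the fit. With the 6 M0 and M2 libraries alone none of the members was called by edgeR, although 10 had an unadjusted p below 0.05, and without M0 replicate 1 only Mylip was. Mvk and Mvd lost their calls in 11 and 12 of 26 alternatives, among them the fits without M0 replicate 3, M1 replicate 3, M2 replicate 1, M2 replicate 3, CaP replicate 2 or 3, or SiO2 replicate 1 or 2, and for Mvk also without SiO2 replicate 3. Abca1 lost its call without M2 replicate 3 and Pmvk kept its call in 6 of 26 alternatives. DESeq2 called 7 members and 5.97% of all genes.

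M1 and M2 cells were then compared directly, in the fit whose spread was estimated over all 15 libraries, M0 included. Of 34 members 10 were called, 9 higher and 1 lower in M1, where 16.1% of all genes were called, 10.6% higher and 5.47% lower. At an unadjusted p below 0.05 there were 16, against 29.7%. The synthesis genes higher in M1 than in M2 were Acat2 (log2 fold change 0.60), Hmgcs1 (0.93), Fdft1 (0.86), Tm7sf2 (0.76), Msmo1 (0.97) and Hsd17b7 (1.17), or 6 of 18. Srebf2 was higher by 0.94 ± 0.15 (edgeR adjusted p = 0.00069). For the enzymes called with both stimuli against M0, the log2 difference between M1 and M2 was 0.54 for Mvk (95% interval 0.01 to 1.07), 0.86 for Mvd (0.06 to 1.67) and 0.27 for Pmvk (-0.05 to 0.58), none of them called.

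The LXR targets split by direction in this comparison. Abcg1 was lower in M1 than in M2 by -1.55 ± 0.39 on the log2 scale (edgeR adjusted p = 0.015), whereas Mylip was higher by 0.81 ± 0.20 (0.014) and Abca1 by 1.01 ± 0.30 (0.032). With the 6 M1 and M2 libraries alone Abcg1, Mylip and Abca1 all lost their calls, as did Acat2 and Tm7sf2. The Abca1 call was lost in 10 of 25 alternatives, among them any fit that left out an M1 library. The Mylip call was lost without M1 replicate 1 or M2 replicate 3, as was that of Acat2, the Tm7sf2 call without M1 replicate 2 or M2 replicate 3, and the Abcg1 call without M1 replicate 2 or M1 replicate 3. Without M2 replicate 2, whose 747 CPM was the highest Abcg1 level of all libraries, the Abcg1 difference was -1.17 (adjusted p = 0.028). Of the 31 further genes Me1 (2.04), Msr1 (1.65), Gramd1a (0.95), Cd36 (0.82) and Scd1 (0.63) were higher in M1 and none lower.

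In the edgeR fit neither kind of microrod led to a call among the members. With CaP rods edgeR called 0 of 34, where 0.421% of 16621 genes were called, 0.289% higher and 0.132% lower. In that comparison 11 members had an unadjusted p below 0.05, against 17.9% of all genes. DESeq2, the method of the paper, called Mvk and Mvd higher and Abcg1 lower, where it called 4.05% of all genes. With SiO2 rods edgeR and DESeq2 called 0 of 34, where edgeR called 0.0602% of all genes, 0.0541% higher and 0.00602% lower, and 8 members had an unadjusted p below 0.05, against 9.28%. Without M0 replicate 2 edgeR called Mvk, Mvd and Abcg1 with CaP, with 1.94% of all genes called, and without CaP replicate 1 it called Sqle, Lss, Dhcr7 and Insig2, with 4% of all genes called. That library stood apart from the other CaP libraries in Dhcr7, at 4.75 CPM against 20.5 and 23.0 CPM, and in Sqle, at 38.4 CPM against 103 and 102 CPM.

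The lowest p-values with CaP were those of Mvk and Mvd. These genes were also called in M2, but the comparisons share the M0 libraries. Mvk had 10.9, 11.2 and 12.5 CPM with CaP and 9.68, 11.8 and 9.30 CPM with SiO2, all above the highest M0 library at 7.73 CPM. Its log2 fold change was 1.04 ± 0.25 with CaP (edgeR adjusted p = 0.11) and 0.86 ± 0.25 with SiO2 (0.36). Mvd had 29.6, 39.3 and 44.3 CPM with CaP and 32.0, 34.8 and 21.8 CPM with SiO2, all above M0, with log2 fold changes of 1.34 ± 0.34 (0.12) and 0.99 ± 0.34 (0.44). Fdft1 had 72.7, 79.1 and 78.6 CPM with CaP and 73.1, 73.0 and 64.1 CPM with SiO2, above the 58.9 CPM of the highest M0 library, with log2 fold changes of 0.53 and 0.40.

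Across the 18 synthesis genes 17 had a positive log2 fold change with each rod, with medians of 0.37 for CaP and 0.36 for SiO2 beside 0.06 and -0.02 over all genes. Every rod library lay above every M0 library for 5 of the 18 with CaP and 10 of the 18 with SiO2, where 7.27% and 9.1% of all genes did. Insig2, the INSIG form not driven by SREBP2, had log2 fold changes of 0.80 with CaP (edgeR adjusted p = 0.19) and 0.84 with SiO2 (0.42), and its levels with SiO2 of 41.3, 46.1 and 38.0 CPM were above the 18.1, 22.2 and 30.2 CPM of M0. Srebf2 had log2 fold changes of 0.41 with CaP (0.19) and 0.27 with SiO2 (0.59). Insig1 went the other way, with -0.62 with CaP (0.27) and -0.44 with SiO2 (0.68), overlapping with M0 in both. Of the 6 genes of the SREBP system and Stard4, 5 had a positive log2 fold change with CaP and 4 with SiO2.

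On the efflux side Abcg1 had 219, 205 and 156 CPM with CaP, all below the lowest M0 library at 264 CPM, and a log2 fold change of -1.06 ± 0.28 (edgeR adjusted p = 0.12). With SiO2 it had 277, 237 and 358 CPM and a log2 fold change of -0.48 (0.65), overlapping with M0. Mylip was below M0 without overlap with both rods, at 6.62 to 8.17 CPM with CaP and 6.69 to 7.86 CPM with SiO2 against 10.1 to 12.1 CPM, with log2 fold changes of -0.54 (0.18) and -0.55 (0.43). Abca1 overlapped with M0 in both. Other genes of the LXR group went the other way, also without a call. Nr1h2 had log2 fold changes of 1.14 with CaP (edgeR adjusted p = 0.18) and 0.91 with SiO2 (0.51). Lpcat3 had 0.57 (0.29) and 0.56 (0.56), and both genes overlapped with M0. Of the 6 tested genes of the group, 3 had a positive log2 fold change with CaP and 2 with SiO2. In all, 2 members lay below M0 without overlap with CaP, where 10.1% of all genes did, and 1 with SiO2, where 8.87% did.

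**Figure D4:**
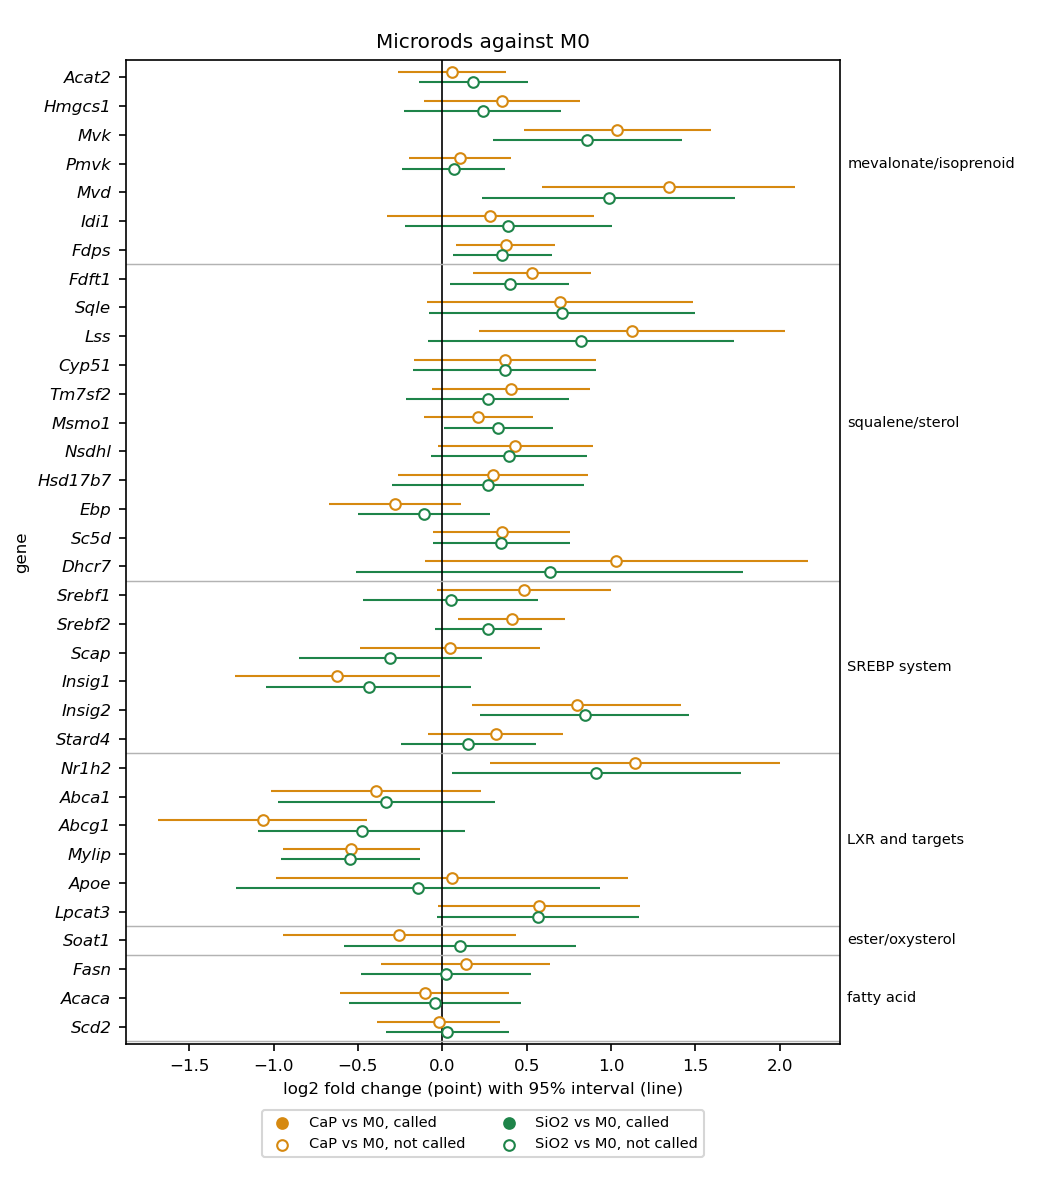
Log2 fold changes against M0 (points) with 95% intervals (lines) for CaP rods in orange and SiO2 rods in green, with filled points reserved for calls, of which there are none. Most synthesis genes lie to the right of 0 for both rods with intervals that overlap each other, and Abcg1 lies furthest left with CaP.

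The rods were compared with each other at the same mass concentration and time, over 34 members with p-values adjusted over all 16621 genes. The paper states that the number of rods differs between the materials at equal mass concentration, because their densities differ. None was called by edgeR, where 0.0241% of all genes were, 0.018% higher and 0.00602% lower. None had an unadjusted p below 0.05, where 1.87% of all genes did, and DESeq2 called none. For 27 of the 34 the 95% interval of the log2 difference between CaP and SiO2 lay within 1 in either direction. The interval was narrowest for Fdps, at -0.27 to 0.31, and widest for Dhcr7, at -0.70 to 1.49. Intervals also reached beyond 1 in either direction for Apoe, Abcg1, Lss, Mvd, Nr1h2 and Soat1. For these and Dhcr7 a difference of over 1 on the log2 scale was not shown to be absent. Abcg1 was the only member whose libraries did not overlap between the rods, lower with CaP by a log2 difference of -0.59 (-1.20 to 0.03), where 4.67% of all genes lay lower and 3.41% higher without overlap.

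Seen by library, the synthesis genes set M1 apart from the other groups. The mean log2 difference from M0 over the 18 genes was 1.02, 1.25 and 1.21 in M1 and 0.76, 0.40 and 0.51 in M2. It was 0.10, 0.65 and 0.58 with CaP, 0.40, 0.57 and 0.29 with SiO2 and -0.28, 0.09 and 0.19 within M0. The M1 libraries thus stood above all others, the M2 and SiO2 libraries above M0 without overlap, and the lowest CaP library within the range of M0. The M2, CaP and SiO2 libraries overlapped one another. The same mean over the 6 LXR group genes ran from -0.46 to 0.22 over all 15 libraries. It was -0.46, -0.21 and -0.12 in M1, where the highest library was level with the lowest of M0 at -0.12, and the other groups overlapped M0.

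Some of these values moved with a measure of base composition. A GC measure was taken for each library, the mean log2 CPM of the genes in the top quartile of transcript GC content minus that of the bottom quartile. It was -0.03, 0.52 and 0.25 in M0, 0.02, 0.56 and 0.59 in M1, 0.88, 0.30 and 0.78 in M2, 0.47, 0.64 and 0.82 with CaP and 0.50, 0.59 and 0.47 with SiO2. In all 5 groups 10 members, among them Mvk, Mvd, Lss, Sqle, Dhcr7 and Nr1h2, were lowest in the library with the lowest GC measure of the group, and Abcg1 was highest there. The share of all genes tested with either pattern was not counted, so neither is shown to be particular to the members. Of the genes named, Mvk and Mvd have a transcript GC content of 59.6% and 59.3%, Sqle 49.3% and Abcg1 52.7%, whereas Hsd17b7 and Sc5d, also among the 10, have 43.9% and 42.9%, beside a median of 49.5% over the genes tested.

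With offsets for transcript GC content and length, edgeR called 19 members and 17% of all genes in M1, the 17 of the fit without offsets among them, with Mvd at a log2 fold change of 2.16 and Abcg1 at -1.32. It called 8 members and 4.4% of all genes in M2, where Mvd was at 1.21, Mvk at 0.69, Abca1 at -1.07 and Mylip at -1.37, and Pmvk was no longer called at 0.28 (adjusted p = 0.49). None was called with either rod, where Mvd had a log2 fold change of 1.01 with CaP (adjusted p = 0.063).

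**Figure D5:**
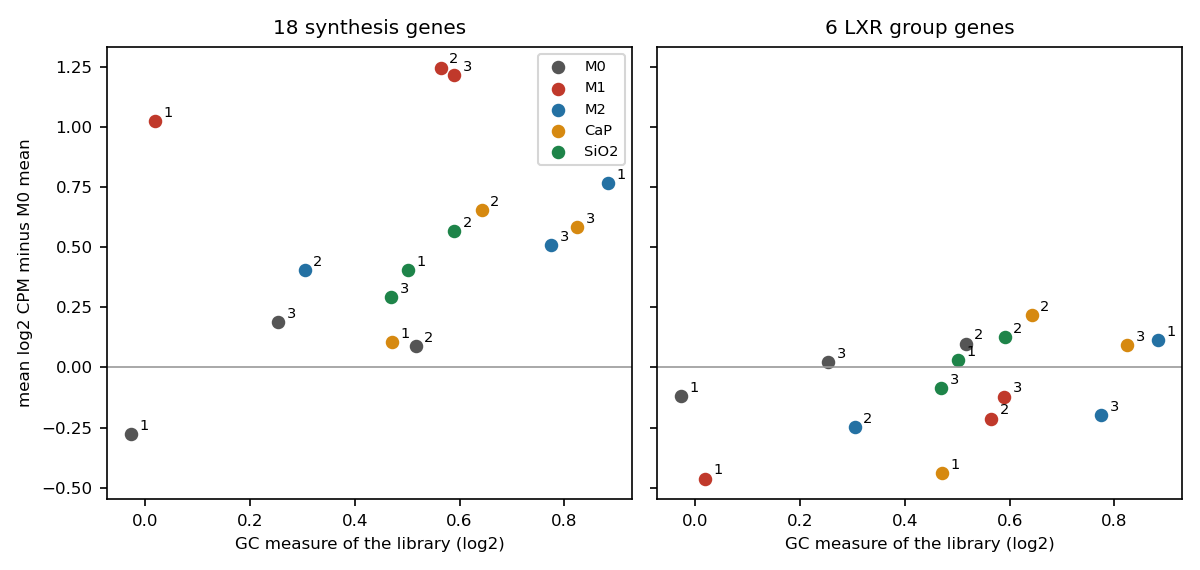
Each point is a library, coloured by group and labelled with its replicate number, with its GC measure (log2) on the horizontal axis and the mean log2 difference from M0 over the 18 synthesis genes (left) or the 6 LXR group genes (right) on the vertical axis. On the left the 3 M1 libraries lie above the others at low and high GC measure alike, and M0 replicate 1 has the lowest value on both axes.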

How the data were processed

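The authors made Smart-seq2 libraries from poly-A RNA and sequenced them as paired-end reads. They ran the nf-core/rnaseq pipeline with STAR and Salmon on the Ensembl annotation of GRCm39. The authors deposited counts, whole numbers per Ensembl gene identifier with neither normalization nor filter, which may be rounded Salmon estimates. Whether strand was used is not given in the sources used here.

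From these counts, genes were filtered with filterByExpr by group, scaled with TMM and tested with the quasi-likelihood test of edgeR 4.0.16 in R 4.3.3, with Benjamini-Hochberg adjustment over all genes tested. The fit over all 15 libraries (16654 genes) gave the M1 and M2 comparisons and that over the 9 M0, CaP and SiO2 libraries (16621 genes) the rod comparisons, without a replicate term. DESeq2 1.42.0, DESeq2 size factors, other filters, thinning, other libraries in the fit, a replicate block and leaving out each library were tried as alternatives, and GC offsets and fits without the lowest-GC library of each group were added after seeing the data. The code was tested on simulated data.

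Symbols, found for 51487 of 78317 identifiers, transcript length and GC content came from an annotation of GRCm38. Members and lists were chosen with earlier results of these data known. A called member is given in every library, for at most the 12 with the smallest adjusted p of a comparison. Some members without a call were named after their values were seen. Counts of amplified cDNA without molecular identifiers give limits for counting error only. Replicates of a group differed by more than sampling noise in all 15 pairs.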

Additional observations from a re-analysis of the deposited data

How the results depend on the processing

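Log2 fold changes were followed through the alternatives for every called member and for some members without a call, and none of these changed sign. Other fold changes given above, such as that of Abcg1 in M2 against M0, were not followed. Over all pairs of a followed fold change and an alternative, 1076 kept their side of the threshold, 88 lost a call and 27 gained one. The 17 members called in M1 against M0 were 14 to 20 when libraries were left out one at a time, and 14 of them, 13 synthesis genes and Srebf2, were called under all 26 alternatives. The 5 called in M2 against M0 were 1 to 7 when libraries were left out, 8 without a filter on low counts or with GC and length offsets, 3 with counts thinned to the smallest library and 0 with the 6 libraries compared alone. The 10 called between M1 and M2 were 6 to 13 when libraries were left out and 5 with the 6 libraries alone. The 0 called with CaP rods became 3 with DESeq2 and 1, Mvd, without a filter. They were 0 to 4 when libraries were left out, with Sqle, Lss, Dhcr7 and Insig2 called without CaP replicate 1 and Mvk, Mvd and Abcg1 without M0 replicate 2. For SiO2 rods and for CaP against SiO2 rods the count was 0 in all alternatives. The causes were not tested.

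The correlations of deviations of same-numbered libraries ran from -0.71 to 0.62 over 30 pairs, and those of differently numbered libraries from -0.65 to 0.74 over 60. Of 15 libraries, 4 correlated best with their own number. No pairing by replicate number was seen in this measure, which cannot exclude a shared day or batch. With a replicate block 17 members were called in M1, 3 in M2, 9 between M1 and M2 and 0 in each rod comparison.

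The limits are those of 3 wells per group of 1 line and 1 passage, with depths that differ several-fold. Low genes such as Abca1 and Tm7sf2 are least precise in the shallow libraries, and the wide spread of Abcg1 and Insig1 within M0 limits the change that can be shown for them.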
